A study of Xenopus laevis with 15 samples.

Results

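The comparison described here sets Xenobots collected right after exposure to ATP against Xenobots that had received no stimulus. Xenobots are small self-propelled tissue constructs that form when the animal cap, the prospective ectoderm of the embryo, is cut from a Xenopus laevis blastula and left to heal into a ball of epidermis covered with beating cilia. All groups were wild type, came from caps cut at stage 9, and developed for 7 days at 14 °C in 0.75X Marc's Modified Ringer's. The Ctrl group received neither ATP nor extract and was labelled as taken before the stimulus. No group is labelled as handled without a stimulus, so effects of ATP and of handling cannot be told apart in this comparison. The ATP 0 h group received ATP at 250 µM and was labelled as taken immediately after the stimulus; the minutes of exposure are not given in the sources used here. The members are 6 of the 15 libraries of the series, 3 for each group, chosen by their titles, and replicates with the same number were treated as a pair where stated. Each library was made from a pool of 50 Xenobots. No label says that the pools came from separate clutches, so the p-values measure the spread between these pools, which may be technical. A second pair of groups is used only to place the result, namely ATP 4 h, collected 4 h after the stimulus, and extract 0 h, collected right after addition of 10 µL of homogenised blastula extract per 14 mL.

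Extracellular ATP is a danger and contact signal in animal epithelia. It opens P2X receptors, which are cation channels, and activates P2Y receptors, which are coupled to G proteins and release calcium from internal stores. Ectonucleotidases break it down to adenosine, which acts on receptors of its own. Immediate early genes such as fos, jun, egr1 and nr4a1 are transcribed within minutes of calcium, cAMP or MAP kinase signals, without new protein synthesis, and many of their products are transcription factors with short-lived mRNAs.

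Total expected counts were 13597538 to 20325075 in the Ctrl libraries and 16344589 to 19169467 in the ATP 0 h libraries. Ribosomal RNA genes took 26.4% to 36.9% of the counts in Ctrl and 28.2% to 43.3% in ATP 0 h, with the highest share in ATP 0 h library 3, which also had the lowest scaling factor, 0.787. The labels call the cells epidermal, and the defining markers of larval frog epidermis were present in every library. The keratin krt12.4.S was at 4020.2 to 4812 CPM, cdh1.S (E-cadherin) at 496 to 634 CPM, the goblet cell lectin itln1.L at 3614 to 5767 CPM, the ciliated cell dynein dnah9.S at 351 to 439 CPM and the ionocyte regulator foxi1.L at 50.3 to 57.5 CPM. A level in CPM is the count relative to the TMM-scaled total of its library; it is not corrected for transcript length and is compared here only within a gene. The 6 tested genes of small secretory cells summed to 2573 to 4511 CPM in Ctrl and to 2844 to 3862 CPM in ATP 0 h. Of their markers, foxa1.L was at 8.17 to 13.7 CPM and foxa1.S at 6.15 to 9.17 CPM. The marker tph1.L (serotonin synthesis) was at 1.60 to 2.49 CPM, while otog.L and otogl.L did not pass the filter on low counts. Neither did mcidas and ccno, regulators of ciliated cell differentiation, with at most 12 counts in any of the 6 libraries. Muscle genes were also present and uneven. Those that passed the filter summed to 135, 279 and 28.8 CPM in Ctrl libraries 1 to 3 and to 11.9, 113 and 26.9 CPM in ATP 0 h libraries 1 to 3.

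Differences after ATP at this time were small, and the genes with the smallest p-values were immediate early genes. Of 24052 genes tested, 0 passed an adjusted p under 0.05 in edgeR's quasi-likelihood test over all 15 libraries (0%), and the lowest adjusted p, 0.0667, was shared by fos.S, fos.L and nr4a1.L. With the replicate number as a block, fos.S passed with an adjusted p of 0.0308 in edgeR, which is 1 gene or 0.00416% of those tested; over 16 alternatives its adjusted p ran from 5.84e-05 to 0.968, and 5 of them called it. An unadjusted p under 0.05 was reached by 383 genes that were higher after ATP (1.59%) and 478 that were lower (1.99%), fewer in all than the 1203 that this threshold gives by chance. The block raised these counts to 592 higher (2.46%) and 798 lower (3.32%), more in all than 1203, so the comparison with chance depended on the pairing. The groups did not overlap in 1299 genes with all 3 ATP values on top (5.40%) and in 917 genes with all 3 at the bottom (3.81%). Among the 21002 genes with a mean of at least 1 CPM, 313 differed by more than 1 on the log2 scale, 73 of them higher after ATP. The central 90% of log2 fold changes over these genes ran from -0.50 to 0.36, with a median standard error of 0.183. Genes called higher or lower below in ATP 0 h against Ctrl have unadjusted p-values under 0.05 unless another value is given. Counts of such genes in a list are to be read beside the shares of all genes, 1.59% higher and 1.99% lower. Genes given only with levels, overlap or a log2 fold change need not reach that threshold, as for the purinergic receptors and several second homeologs. Apart from fos.S under the block none of the named genes passed the adjusted threshold in these fits, so their differences are given as values.

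**Figure D1:**
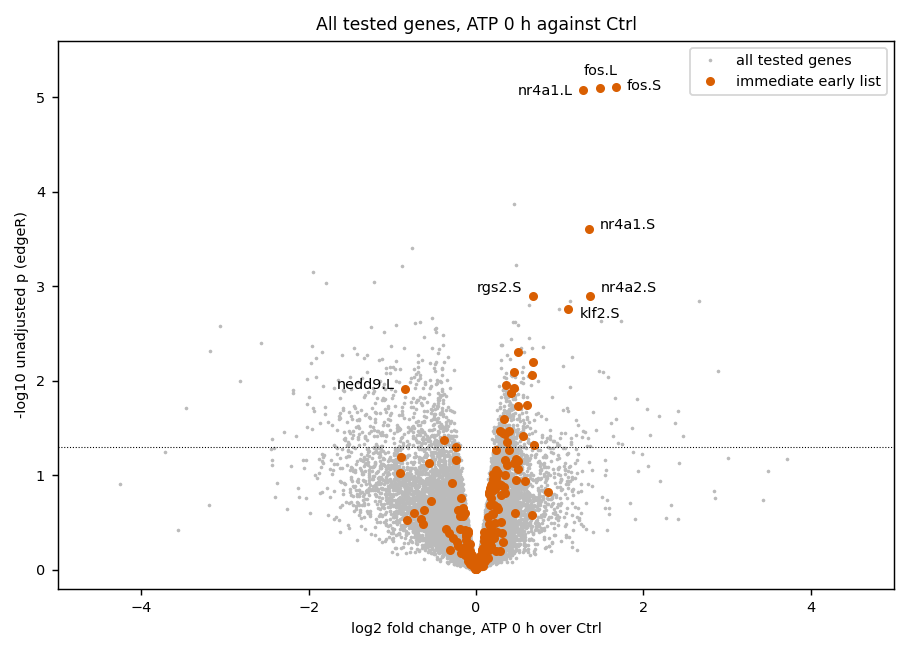
Each point is one gene, placed by its log2 fold change (ATP 0 h over Ctrl, horizontal axis) and the negative log10 of its unadjusted edgeR p-value (vertical axis); orange points are the immediate early list, the dotted line marks a value of 0.05, and 10 genes lie beyond the horizontal limit of 5. Both fos copies and nr4a1.L stand above all other genes, and nr4a1.S is the fifth gene by p.

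The AP-1 family supplied the genes with the smallest p-values. fos.S, a copy of the leucine zipper factor that pairs with jun to form AP-1, was at 4.19, 3.36 and 2.64 CPM in Ctrl and at 9.00, 15.1 and 8.40 CPM in ATP 0 h. Its lowest ATP library was above the highest Ctrl library, and the log2 fold change was 1.67 ± 0.253 (SE), which is 3.18-fold. The other copy, fos.L, was at 3.73, 3.31 and 2.64 CPM in Ctrl and at 7.27, 10.4 and 9.65 CPM in ATP 0 h. These groups did not overlap either, and the log2 fold change was 1.49 ± 0.226, or 2.80-fold. The values rest on 33 to 75 counts per Ctrl library and 108 to 273 counts per ATP library for fos.S, and on 33 to 74 and 124 to 189 counts for fos.L. Within pairs the log2 difference of fos.S was 1.08, 2.13 and 1.62, and that of fos.L was 0.94, 1.62 and 1.82.

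The partners of fos moved less. jun.S was at 24.5, 19.4 and 26.0 CPM in Ctrl and at 31.8, 31.5 and 32.0 CPM in ATP 0 h, with no overlap and a log2 fold change of 0.45 ± 0.158. For jun.L the values were 26.2, 23.4 and 26.0 CPM against 36.2, 33.0 and 27.9 CPM, so that ATP library 3 lay just above the Ctrl range. junb.L was at 56.4, 46.4 and 51.8 CPM in Ctrl and at 71.5, 76.1 and 70.4 CPM in ATP 0 h, a log2 fold change of 0.50 ± 0.152 without overlap. Its copy junb.S differed by 0.40 (unadjusted p = 0.0544), also without overlap. Of the 20 AP-1 genes tested, 5 had an unadjusted p under 0.05 and were higher, 0 were lower, and 8 lay without overlap above Ctrl. The median log2 fold change of the family was 0.08, against 0.00 over all genes, and its sign depended on single libraries: it was -0.04 without Ctrl library 2 or without ATP library 1, and 0.20 without Ctrl library 1. atf3.L, a stress-responsive member, had a log2 fold change of -0.14, and fosl2.L one of -0.24 with an unadjusted p of 0.0693.

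All 4 tested genes of the nr4a family, orphan nuclear receptors that are induced by calcium and cAMP in many cell types, were higher after ATP without overlap between the groups. Of all genes, 1.59% were higher and 5.40% lay above Ctrl without overlap. nr4a1.L was at 10.5, 7.47 and 10.7 CPM in Ctrl and at 17, 29.1 and 23.2 CPM in ATP 0 h, a log2 fold change of 1.28 ± 0.196. nr4a1.S went from 6.28, 4.16 and 5.77 CPM to 9.75, 17.2 and 14.2 CPM, a log2 fold change of 1.35 ± 0.282. The second ATP library was the highest for both copies, and the first was the lowest. The nr4a2 copies were scarce. nr4a2.S was at 0.785, 0.537 and 0.882 CPM in Ctrl and at 1.56, 1.88 and 2.18 CPM in ATP 0 h, which corresponds to 11 to 12 and 28 to 34 counts per library. nr4a2.L had a smaller log2 fold change of 0.70 ± 0.324. The median over the 4 genes was 1.32 on the log2 scale.

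Among the klf and egr genes tested, klf2.S had the largest log2 fold change. It was at 2.49, 3.71 and 2.32 CPM in Ctrl and at 5.01, 8.05 and 5.52 CPM in ATP 0 h, a log2 fold change of 1.10 ± 0.292. The 3 pairs gave similar log2 differences of 0.98, 1.09 and 1.21. Its copy klf2.L had a log2 fold change of 0.46 with overlapping groups. Of 13 klf genes tested, 2 (15.4%) had an unadjusted p under 0.05, klf2.S and klf15.S, both higher, against 1.59% of all genes. egr1.L, a classic serum-responsive factor, was at 38.4, 25.2 and 50.3 CPM in Ctrl and at 49.8, 61.3 and 61.5 CPM in ATP 0 h. The third Ctrl library lay above the first ATP library, so the groups overlapped, although each pair was higher after ATP; the log2 fold change was 0.60 ± 0.227, and that of egr1.S was 0.50 (unadjusted p = 0.0707).

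**Figure D2:**
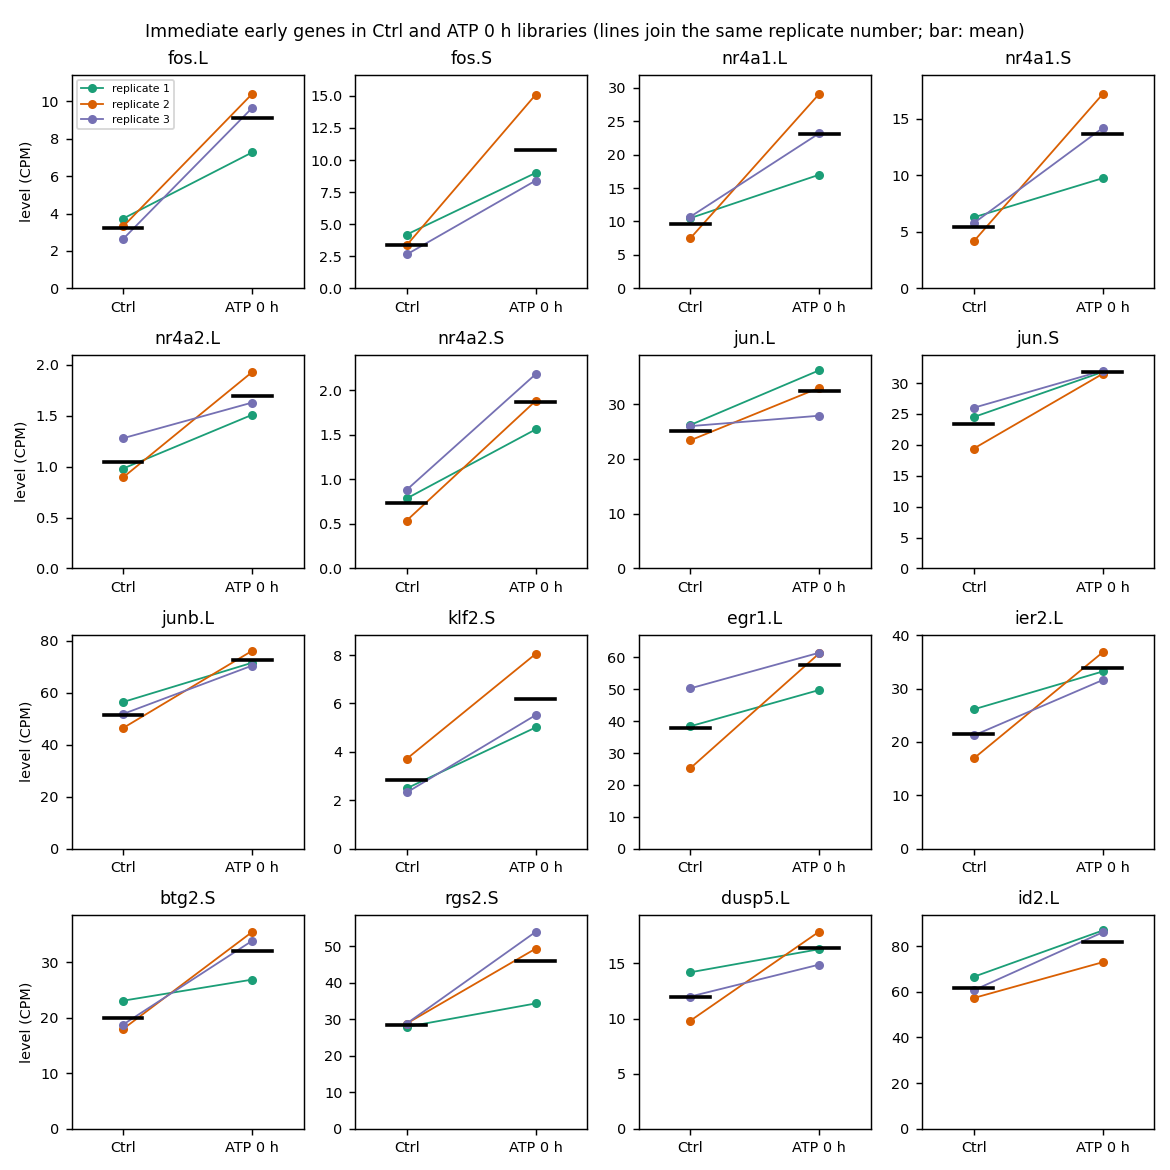
Levels of 16 immediate early genes in CPM (vertical axes, each starting at 0) in the 3 Ctrl and 3 ATP 0 h libraries; lines join libraries with the same replicate number and black bars are group means. In both fos copies and all 4 nr4a genes every ATP 0 h library lies above every Ctrl library, while egr1.L overlaps.

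Of the 59 other immediate early transcription regulators tested, 40 (67.8%) had a log2 fold change above 0, against 50.6% of all genes. ier2.L, a growth-factor-inducible nuclear protein, was at 26.1, 16.9 and 21.2 CPM in Ctrl and at 33.2, 36.8 and 31.6 CPM in ATP 0 h, with a log2 fold change of 0.67 ± 0.220. id2.L, an inhibitor of helix-loop-helix factors, was at 66.6, 57.3 and 60.7 CPM against 86.9, 73.0 and 86.1 CPM. Neither gene overlapped between the groups. ier2.S, id2.S, id3.L and irf1.L completed the 6 with an unadjusted p under 0.05. All 6 (10.2%) were higher, against 1.59% of all genes, and 0 were lower, against 1.99%. For irf1.L, an interferon-regulatory factor, the groups overlapped, at 35.0, 51.4 and 50.1 CPM in Ctrl and 48.1, 68.5 and 62.9 CPM in ATP 0 h.

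Of the 36 growth and survival regulators tested, 28 (77.8%) had a log2 fold change above 0, against 50.6% of all genes. rgs2.S, which shortens signalling by Gq-coupled receptors, was at 27.9, 28.8 and 28.8 CPM in Ctrl and at 34.3, 49.3 and 53.9 CPM in ATP 0 h. The Ctrl libraries were nearly identical, and the log2 fold change was 0.68 ± 0.173. Its copy rgs2.L was at 76.1, 66.0 and 85.5 CPM against 87.9, 108 and 127 CPM, a log2 fold change of 0.50 ± 0.192. btg2.S, an antiproliferative gene, was at 23.1, 18.0 and 18.8 CPM in Ctrl and at 26.9, 35.5 and 33.9 CPM in ATP 0 h. With gadd45g.L and btg1.S, 5 of the 36 genes with this role (13.9%) were higher, against 1.59% of all genes. The only lower gene (2.78%, against 1.99% of all genes) was nedd9.L, an adhesion scaffold. It was at 4.39, 8.14 and 4.25 CPM in Ctrl and 2.32, 3.81 and 3.35 CPM in ATP 0 h, and its copy nedd9.S had a log2 fold change of 0.02.

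Feedback inhibitors of MAP kinase signalling were split. dusp5.L, a nuclear phosphatase of ERK, was at 14.2, 9.80 and 12.0 CPM in Ctrl and at 16.3, 17.9 and 14.9 CPM in ATP 0 h, a log2 fold change of 0.45 ± 0.149. spry2.S, an inhibitor of receptor tyrosine kinase signalling, was lower, at 5.50, 5.64 and 6.33 CPM against 4.15, 4.58 and 4.67 CPM. Only dusp5.L and spry2.S of the 23 had an unadjusted p under 0.05, 4.35% in each direction against 1.59% higher and 1.99% lower of all genes. Of the 28 secreted signals of the list 0 reached it in either direction, and their median log2 fold change was -0.06; hbegf.L, ccn1.L and ccn2.L all had overlapping groups. Of the 7 mRNA decay factors, among them the zfp36 family that shortens the life of immediate early transcripts, 0 reached it.

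Over the immediate early list as a whole, 227 genes were found in the table and 192 passed the filter on low counts. Of these, 24 (12.5%) were higher with an unadjusted p under 0.05, against 1.59% of all genes, and 2 (1.04%) were lower, against 1.99%. Without overlap, 41 (21.4%) lay above Ctrl and 6 (3.12%) below, against 5.40% and 3.81% of all genes. The median log2 fold change was 0.08. Leaving out Ctrl library 2, which was the lowest of the 3 Ctrl libraries for both nr4a1 copies and both egr1 copies, gave 11 higher genes. Leaving out other libraries gave 19 to 27.

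Xenopus laevis is allotetraploid, and the .L and .S copies of a gene (homeologs) were counted apart, so both copies of a gene offer separate measurements of the same libraries. Their reads can be split uncertainly where sequences are alike. Of 5618 pairs with both copies tested, 13 (0.231%) had an unadjusted p under 0.05 and a higher level after ATP in both copies. Of the 87 immediate early pairs 7 (8.05%) did, namely fos, id2, ier2, jun, nr4a1, nr4a2 and rgs2, and 0 pairs were lower in both copies. This criterion was chosen after the values had been seen. When the counts of both copies were summed, fos rose by 1.59 ± 0.215 on the log2 scale with an adjusted p of 0.0456 in edgeR, and it was the only gene to pass in that fit.

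**Figure D3:**
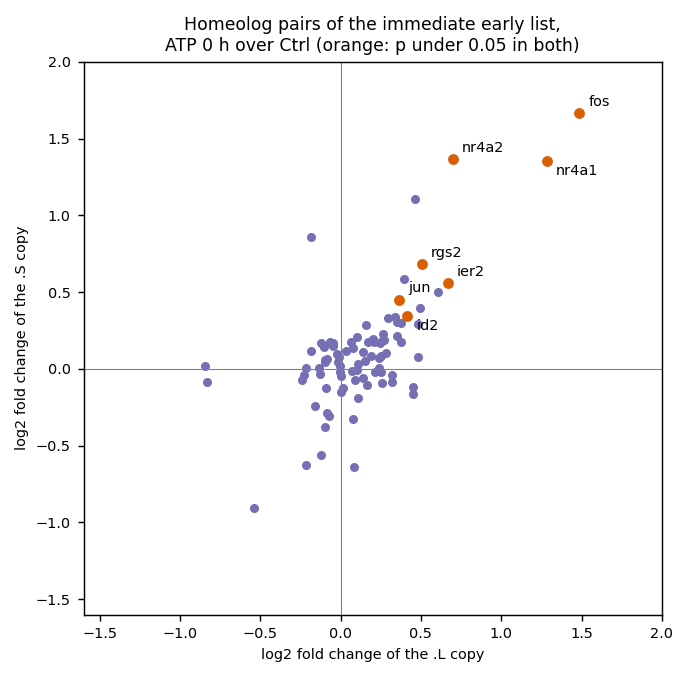
Each point is one of 87 immediate early homeolog pairs, placed by the log2 fold change (ATP 0 h over Ctrl) of the .L copy (horizontal axis) and the .S copy (vertical axis); orange marks pairs with an unadjusted p under 0.05 in both copies. The 7 orange pairs all lie in the upper right, led by fos and nr4a1.

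Of the 10 higher genes chosen by smallest p and no overlap, 4 lay outside the immediate early list. fam43a.L was at 24.8, 27.0 and 26.7 CPM in Ctrl and at 34.7, 37.2 and 35.2 CPM in ATP 0 h, with a log2 fold change of 0.45 ± 0.0885. The spread within each group was small, and the fourth smallest p of the comparison, 0.000133, belonged to this gene. bspry.S was scarce, at 0.589, 0.805 and 0.962 CPM in Ctrl and 1.89, 1.54 and 1.71 CPM in ATP 0 h. The others were LOC121393066, at 12.8, 12.9 and 11.9 CPM against 16.8, 18.1 and 17.7 CPM, and LOC108707360, with a log2 fold change of 0.63 ± 0.164. The files and the gene table used here give these 2 no further name.

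The genes that receive, make or destroy the ATP signal gave 1 unadjusted p under 0.05 in all. Among P2X channels, p2rx4.L was at 9.49, 8.14 and 10.7 CPM in Ctrl and 10.2, 9.43 and 6.69 CPM in ATP 0 h. p2rx5.L was at 1.18, 0.626 and 0.801 CPM in Ctrl and at 1.13, 0.993 and 0.156 CPM in ATP 0 h. The groups overlapped for both. Of 7 P2X genes found, 3 passed the filter on low counts; p2rx7.L, the channel known from mammals to need high ATP, had at most 11 counts per library and did not.

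Of 18 genes with a P2Y symbol 9 passed the filter. They were listed by symbol, and whether each encodes a nucleotide receptor was not examined. The uridine-nucleotide receptor p2ry6.S was at 18.3, 11.6 and 14.3 CPM in Ctrl and 16, 14.6 and 13.8 CPM in ATP 0 h. p2ry10.S was at 1.64 to 2.16 CPM in Ctrl and 1.60 to 2.75 CPM in ATP 0 h. The classical ATP receptors p2ry2.L and p2ry2.S were each below 2 CPM in every one of the 6 libraries. Of the 9 tested P2Y genes 3 (33.3%) had a log2 fold change above 0, against 50.6% of all genes, with a median of -0.34. Without overlap, 1 (11.1%) lay below Ctrl, against 3.81% of all genes. It was p2ry1.S, at 0.785, 0.805 and 0.801 CPM in Ctrl and 0.700, 0.496 and 0.700 CPM in ATP 0 h (unadjusted p = 0.483 in edgeR). The adenosine receptor adora2a.S was at 5.43, 5.68 and 5.45 CPM in Ctrl and at 6.41, 6.90 and 6.30 CPM in ATP 0 h; the groups did not overlap, but the unadjusted p was 0.213. Its copy adora2a.L overlapped, at 3.98 to 5.43 CPM against 3.97 to 5.57 CPM. Among the 21 nucleotide-degrading enzymes tested, enpp2.L was lower, at 20.0, 26.8 and 13.2 CPM in Ctrl and 15.6, 17 and 10.0 CPM in ATP 0 h. The groups overlapped, although each pair was lower, and enpp2 is best known for making the lipid signal lysophosphatidic acid. With the replicate block ak1.S, an adenylate kinase, also had an unadjusted p under 0.05, at 21.1, 26.7 and 17.6 CPM in Ctrl and 23.5, 31.3 and 28.1 CPM in ATP 0 h, as did the lower p2ry4.L (unadjusted p = 0.00599 and 0.0476 in edgeR). In all, 89 purinergic genes were found and 56 tested; without the block 0 were higher, 1 was lower and the median log2 fold change was -0.02.

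Few transcripts of the pathways that link such receptors to immediate early genes had an unadjusted p under 0.05. Of 106 calcium signalling genes 1 was higher, gna14.L, a G protein of the Gq class, at 98.4, 109 and 106 CPM in Ctrl and 119, 123 and 123 CPM in ATP 0 h, and 0 were lower. All 4 store release channels tested had log2 fold changes below 0, with a median of -0.33, while 50.6% of all genes lay above 0. Of these channels 0 reached an unadjusted p under 0.05, and their log2 fold changes ran from -1.14 to -0.11. The calcium release channel gene ryr1.L is a muscle gene. Among the Ctrl and ATP 0 h libraries it was highest in Ctrl library 2, at 5.14 CPM. The part of muscle in the values of the store release channels was not tested. Of 44 genes of the cAMP and CREB pathway 0 differed in either direction. Of 54 genes of the MAP kinase cascade 1 was lower, elk3.L, a ternary complex factor that binds next to SRF, at 6.74, 7.74 and 3.21 CPM in Ctrl and 2.59, 3.42 and 2.80 CPM in ATP 0 h. Of 49 actin and SRF target genes 0 were higher and 3 (6.12%) were lower, against 1.99% of all genes. Their median log2 fold change was -0.09, but 0.12 without Ctrl library 2. The count of lower genes was 0 without Ctrl library 2 or ATP library 1, and 1 without ATP library 3. The lower ones included tpm1.L, a tropomyosin, with a log2 fold change of -0.99 ± 0.353, and myh10.S, a non-muscle myosin, with -1.20 ± 0.546. Ctrl library 2, which held the most muscle transcript, was the highest library for each of these 3 named lower genes, and the part of muscle in their difference was not tested.

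Stress programmes showed little difference. Of 111 heat shock and chaperone genes 0 were higher and 1 was lower, hspa12b.L, which had 2 to 17 counts per library, and the median log2 fold change was 0.02. Of 100 genes of the stress response list 2 were higher and 0 lower. These were ddit4.L, an inhibitor of mTOR signalling, at 32.9, 31.8 and 23.6 CPM in Ctrl and 32.9, 47.9 and 37.4 CPM in ATP 0 h, and gpx4.L, a lipid peroxide reductase. In the oxidative stress role 80.5% of the 41 genes had a log2 fold change above 0, against 50.6% of all genes, with a median of 0.18 that ran from 0.09, without Ctrl library 3, to 0.29, without Ctrl library 2. Of 81 genes of inflammation and innate immunity 2 (2.47%) were higher and 2 (2.47%) lower, against 1.59% and 1.99% of all genes. The flagellin receptor tlr5.L was among the lower, at 5.50, 5.68 and 4.49 CPM against 3.66, 3.70 and 2.80 CPM.

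Genes of motile cilia were higher as a group by small amounts. Of 158 found and 148 tested, 18 (12.2%) were higher with an unadjusted p under 0.05 and 0 were lower, against 1.59% and 1.99% of all genes. Without overlap, 26 (17.6%) lay above Ctrl and 0 below, against 5.40% and 3.81% of all genes. The log2 fold change was above 0 in 84.5%, against 50.6% of all genes, with a median of 0.17. In all 3 pairs 37.2% were higher, against 16.7% of all genes. The alpha tubulin tuba1cl.3.L was at 294, 281 and 235 CPM in Ctrl and at 359, 432 and 417 CPM in ATP 0 h, a log2 fold change of 0.58 ± 0.176. The ciliary tubulin gene tubb4b.S was at 173, 187 and 127 CPM against 198, 259 and 227 CPM. Neither tubulin overlapped between the groups. tekt3.L, a filament protein inside doublet microtubules, was at 68.7, 71.3 and 63.1 CPM in Ctrl and at 79.5, 90.6 and 97.6 CPM in ATP 0 h.

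Structural roles of the cilium differed in how widely this held. All 17 tested genes of radial spokes and the central pair had a log2 fold change above 0, with a median of 0.20; spag6.L, a central pair protein, was at 24.9, 27.3 and 25.3 CPM in Ctrl and 28.6, 37.7 and 34.7 CPM in ATP 0 h. Of 54 docking, ruler and doublet genes 8 (14.8%) were higher, against 1.59% of all genes. They included spata4.L at 4.52, 5.73 and 4.65 CPM against 6.03, 8.61 and 7.31 CPM, and efhc2.L at 26.2, 22.3 and 22.2 CPM against 28.8, 27.7 and 34.2 CPM. Of 19 dynein arm genes 1 (5.26%) was higher, dnai4.S, and 18 (94.7%) had a log2 fold change above 0, against 50.6% of all genes. Of 23 dynein assembly factors 2 (8.70%) were higher, dnaaf4.L and dnaaf6.L, with log2 fold changes of 0.39 and 0.36. Without overlap, 4.35% of these factors lay above Ctrl, against 5.40% of all genes. Among 40 tubulins and their modifiers 65.0% had a log2 fold change above 0. The size of the group's difference depended on single libraries. Its median was 0.09 without ATP 0 h library 3, with 7 genes higher, while the docking, ruler and doublet genes then had a median of 0.03 in place of 0.18. The median of the whole list was 0.23 without ATP 0 h library 1, with 36 genes higher; without ATP 0 h library 2 and without Ctrl library 3, 7 and 9 genes were higher. Housekeeping genes, described below, leaned upward by a similar amount, with 89.8% above 0 and a median of 0.18. The part of such a shared lean between libraries in the cilia values was not tested. In pooled tissue, more ciliated cells and more ciliary RNA per cell cannot be told apart.

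Among the regulators of ciliated cells, a list that also holds Notch pathway genes, 23 of the 52 tested (44.2%) had a log2 fold change above 0, against 50.6% of all genes. At an unadjusted p under 0.05, 4 (7.69%) were higher and 1 (1.92%) lower, against 1.59% and 1.99% of all genes. Both copies of foxj1, the master regulator of motile cilia, were higher. foxj1.L was at 19.6, 20.1 and 21.7 CPM in Ctrl and at 25.8, 25.3 and 32.2 CPM in ATP 0 h, and foxj1.S at 23.3, 26.7 and 26.4 CPM against 27.9, 38.0 and 37.2 CPM. Neither copy overlapped, and the log2 fold changes were 0.44 ± 0.161 and 0.43 ± 0.144. hes4.L, a repressor downstream of Notch, was at 13.3, 13.3 and 12.3 CPM against 16.8, 18.3 and 17.6 CPM. tfdp1.L, a partner of E2F factors, was also higher by 0.31, while the receptor notch2.L was lower, at 37.9, 42.6 and 45.7 CPM against 33.3, 33.3 and 35.0 CPM.

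**Figure D4:**
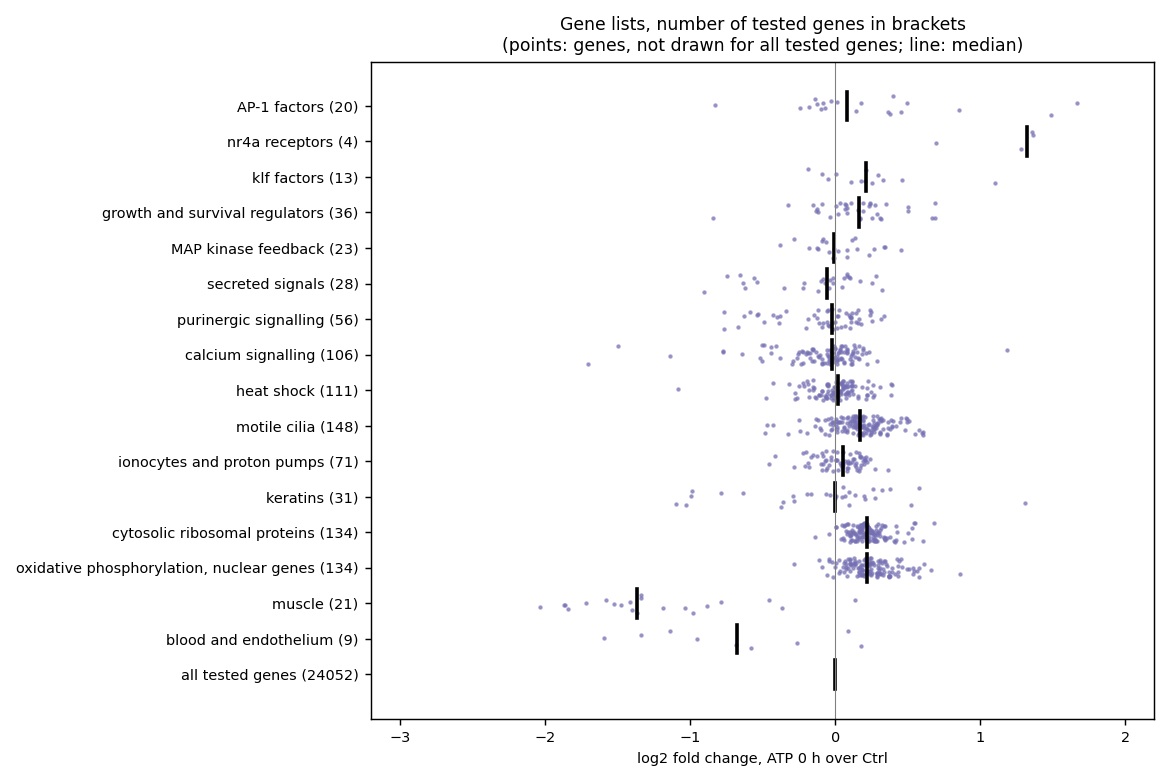
Log2 fold change (ATP 0 h over Ctrl, horizontal axis) of the tested genes of 16 lists or roles; each point is a gene, black lines are medians, brackets give the number tested, and the bottom line is the median of all 24052 genes. The nr4a receptors stand highest with a median of 1.32, cilia, ribosomal protein and oxidative phosphorylation genes lie narrowly right of 0, and muscle genes lie left with a median of -1.37.

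Genes of the other epidermal cell types gave few unadjusted p-values under 0.05, although several lists had more members above Ctrl without overlap than the 5.40% of all genes. Those shares were 12.7% of 71 ionocyte and proton pump genes, 15.8% of 19 goblet cell genes and 20.3% of 74 junction genes, against 3.23% of 31 keratins. Among 36 subunits of the V-ATPase proton pump the share was 16.7%, and 77.8% had a log2 fold change above 0. Of the 71 ionocyte and proton pump genes 0 were higher and 1 was lower at an unadjusted p under 0.05, the bicarbonate cotransporter slc4a4.S, at 9.42, 10.0 and 13 CPM in Ctrl and 10.6, 7.01 and 5.68 CPM in ATP 0 h. Of 25 genes of secretory cells 1 was higher, agr2.L, a disulfide isomerase of mucus-secreting cells, at 40.4, 51.4 and 43.9 CPM against 55.8, 61.0 and 111 CPM, where ATP library 3 stood well above the others. Of 31 keratins 1 was higher, krt18.3.L, with a log2 fold change of 0.26. Of 74 junction genes 2 (2.70%) were higher and 2 (2.70%) lower, against 1.59% and 1.99% of all genes. A lower one, cldn5.L (an endothelial claudin), was scarce, with 7 to 72 counts per library. Among 74 ion channel genes 1 (1.35%) was higher and 3 (4.05%) were lower, against 1.59% and 1.99% of all genes. The higher one was kcnj2.S, an inward rectifier that sets the resting potential, at 30.4, 30.4 and 29.8 CPM in Ctrl and 32.6, 49.3 and 36.6 CPM in ATP 0 h. kcnab2.L, a potassium channel subunit, was lower, at 1.70, 1.66 and 1.52 CPM against 0.646, 0.938 and 0.934 CPM, and so were ano8.L and cacna1s.S, the latter being the calcium channel of skeletal muscle.

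Abundant housekeeping transcripts leaned upward together. Of 449 genes tested, 6 (1.34%) were higher with an unadjusted p under 0.05 and 1 (0.223%) was lower, against 1.59% and 1.99% of all genes. Yet 89.8% had a log2 fold change above 0, against 50.6% of all genes. Among 134 cytosolic ribosomal protein genes 132 did, with a median of 0.22, although 0 reached an unadjusted p under 0.05. Their summed level was 19966, 23188 and 16906 CPM in Ctrl and 19687, 23789 and 25914 CPM in ATP 0 h. ATP library 3 was the highest and Ctrl library 3 the lowest of the 6, and ATP library 3 was also the library with the most ribosomal RNA; the part of that share in the difference was not tested. Leaving out single libraries moved the ribosomal protein median between 0.11, without Ctrl library 3 or ATP library 3, and 0.33, without Ctrl library 2. Nuclear genes of oxidative phosphorylation had the same median, 0.22, with 126 of 134 above 0 and 4 higher with an unadjusted p under 0.05, such as ndufa7.S and ndufa6.S. Without Ctrl library 3 the oxidative phosphorylation list had 0 higher genes, without Ctrl library 1 or ATP library 2 it had 2, without ATP library 3 it had 1, and without Ctrl library 2 or ATP library 1 it had 16. Proteasome genes had a median of 0.14, with 2 higher, both copies of psmd14. With surrogate variables as covariates, the ribosomal protein median was -0.02 and the oxidative phosphorylation median 0.09. The 68 cell cycle genes had a median of 0.05 with 0 in either direction, and the only lower gene of the housekeeping list was the glycolysis regulator pfkfb3.S.

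The lower side held more genes than the higher side by unadjusted p (478 against 383) and fewer by absence of overlap (917 against 1299). By smallest p without overlap, arhgef10.S came first, at 4.97, 6.13 and 5.05 CPM in Ctrl and 2.69, 3.42 and 3.42 CPM in ATP 0 h (log2 fold change -0.77 ± 0.171). npnt.L, encoding the basement membrane protein nephronectin, was at 6.87, 11.9 and 6.25 CPM against 4.36, 4.47 and 4.82 CPM. gli2.S, a transcription factor of hedgehog signalling, was at 18.3, 14.8 and 18.3 CPM against 13.1, 8.55 and 9.03 CPM. The other lower genes chosen this way were the extracellular matrix genes adamtsl4.L and tll1.L, tbc1d12.S, fbxo25.L and 3 genes without a name, LOC121401594, LOC108708756 and LOC108702965, with log2 fold changes from -0.48 to -1.94.

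Among homeolog pairs 27 (0.481%) were lower in both copies. pdgfra.L, a copy of the platelet-derived growth factor receptor alpha gene, was at 3.14, 6.71 and 2.00 CPM in Ctrl and at 1.83, 2.59 and 1.09 CPM in ATP 0 h, and the transcriptional repressor zeb1.L at 1.31, 1.97 and 1.04 CPM against 0.377, 0.993 and 0.467 CPM. st8sia1.L, a ganglioside sialyltransferase, was at 1.18, 1.25 and 0.962 CPM against 0.215, 0.441 and 0.311 CPM. Other pairs differed less, such as fgfr2 with log2 fold changes of -0.26 and -0.24 in the .L and .S copies, and the hedgehog pathway genes cdon (-0.44 and -0.27) and disp1 (-0.47 and -0.33). These pairs were picked after their values had been seen.

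Of 66 tested markers of other cell types 4 (6.06%) were lower and 0 higher at an unadjusted p under 0.05, against 1.99% and 1.59% of all genes. Of 39 muscle genes 21 were tested, and 20 of these had a log2 fold change below 0, with a median of -1.37. Only 2 reached an unadjusted p under 0.05, ckm.L and mybpc3.L. ckm.L, the muscle creatine kinase, was at 21.9, 48.6 and 8.01 CPM in Ctrl and at 3.12, 17.5 and 6.85 CPM in ATP 0 h, and the skeletal myosin myh4.L at 53.9, 107 and 5.93 CPM against 1.56, 38.5 and 5.68 CPM. The groups overlapped for both, since ATP library 2 lay above Ctrl library 3. Leaving out single libraries moved the muscle median between -2.68, without ATP library 2, and -0.70, without Ctrl library 2; the number of lower genes was 16 without ATP library 2, 11 without Ctrl library 3 and 1 without each of the others. With the replicate block 8 muscle genes had an unadjusted p under 0.05. Blood and endothelial genes had a median of -0.68 over 9 genes, with 0 past the threshold and 1 with the replicate block, cdh5.L (unadjusted p = 0.00118 in edgeR); the vascular cadherin cdh5.L was at 8.50 ± 5.47 CPM (SD, n = 3) in Ctrl, widely spread, and at 2.79 ± 1.46 CPM (SD, n = 3) in ATP 0 h. Neural markers had a median of -0.09 over 11 genes. The pigment cell regulator mitf.L was at 2.36, 1.92 and 2.08 CPM in Ctrl and at 1.29, 1.21 and 1.17 CPM in ATP 0 h, without overlap, and the cartilage and notochord collagen col2a1.S had a log2 fold change of -0.65. Over the 66 tested genes of other cell types the summed level was 438 to 816 CPM in Ctrl and 428 to 578 CPM in ATP 0 h. Of all 173 genes of this list, 18 had no counts in any of the 6 libraries. Among them were the neural factor pax6.L, the endoderm factors pdx1.L and pdx1.S, the notochord signal shh.L and the leukocyte gene ptprc.L. In pools of whole constructs, fewer cells of a type and less RNA per cell cannot be told apart, and the part of muscle or vascular tissue in the lower genes was not tested.

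By the later collection fos and jun were lower again, whereas both nr4a1 copies were still high. The comparison of ATP 4 h with ATP 0 h shares the ATP 0 h libraries with the comparison against Ctrl. Genes named for a high level in those libraries can fall partly through that choice, so their fall is not independent support. The series has no unstimulated group collected at 4 h, and Ctrl was labelled as taken before the stimulus. Effects of ATP and of elapsed time or handling therefore cannot be told apart in the 4 h values. Nor can effects of ATP and of handling in the 0 h values, since no group is labelled as handled without a stimulus. In ATP 4 h against ATP 0 h, 3 genes passed an adjusted p under 0.05 in edgeR (0.0125% of those tested), and all 3 fell. fos.L was at 7.27, 10.4 and 9.65 CPM at 0 h and at 1.97, 3.64 and 3.18 CPM at 4 h, a fall of 1.63 ± 0.227 on the log2 scale (adjusted p = 0.0224). jun.L was at 36.2, 33.0 and 27.9 CPM at 0 h and at 15, 17.8 and 17.1 CPM at 4 h, and ier5l.S at 32.5, 29.7 and 29.9 CPM against 16, 17.9 and 18.9 CPM. Both had the same adjusted p of 0.0224. At 4 h jun.L and ier5l.S lay below all 3 Ctrl libraries, which were at 23.4 to 26.2 CPM and 26.4 to 28.2 CPM. Leaving out any 1 library of this comparison left 0 or 1 of the 3 calls, jun.L without ATP 0 h library 3.

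With the replicate block 14 genes passed (0.0582%), 9 lower and 5 higher at 4 h. The 9 that fell were fos.L, fos.S, jun.L, jun.S, id3.L, ier5l.S, msx1.S, sox9.S and znf703.S. The 5 that rose were LOC108718763, dab2.L, mybpc3.L, ppp2r3a.S and ryr1.L; mybpc3 and ryr1 are muscle genes, and the tested muscle genes had a median log2 fold change of 2.06 in this comparison. Of the 192 immediate early genes 47 were lower at 4 h with an unadjusted p under 0.05, against 4.32% of all genes, and 7 were higher, against 4.51%. In contrast, nr4a1.L was at 17, 29.1 and 23.2 CPM at 0 h and at 23.7, 30.6 and 26.3 CPM at 4 h, a log2 difference of 0.22 ± 0.186 (unadjusted p = 0.257). nr4a1.S differed by 0.21 ± 0.264 (unadjusted p = 0.435), and its 3 libraries at 4 h, 14.7, 16.7 and 16.2 CPM, lay within the range of the 0 h libraries.

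**Figure D5:**
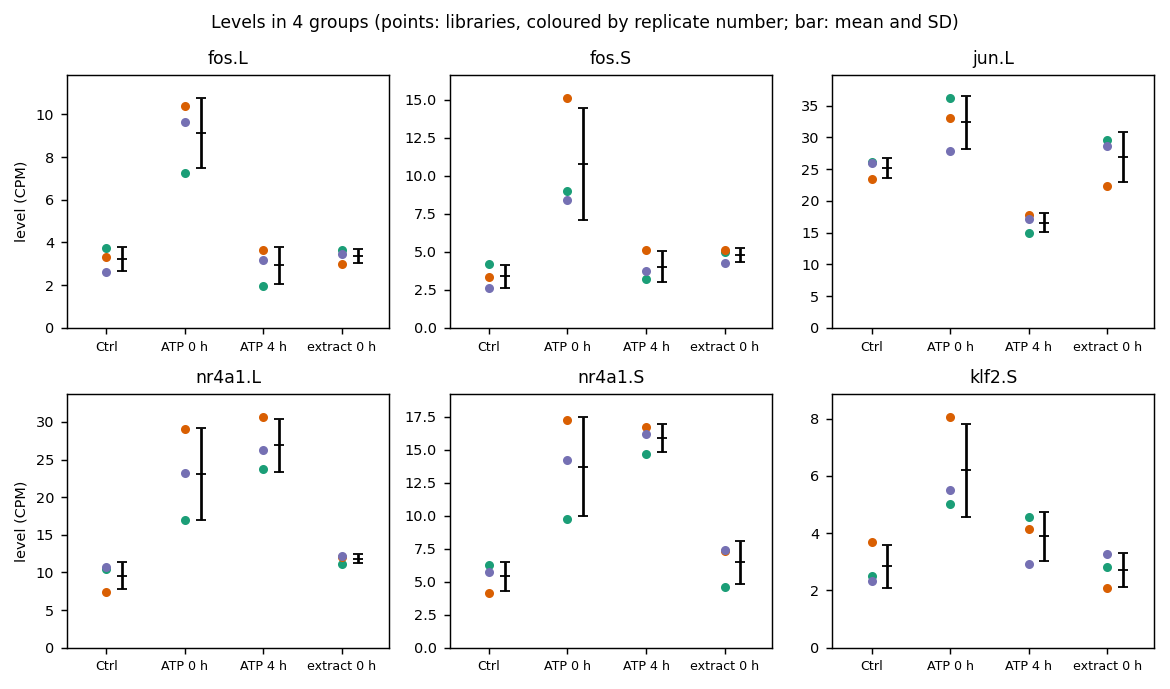
Levels in CPM (vertical axes, each starting at 0) of 6 genes in Ctrl, ATP 0 h, ATP 4 h and extract 0 h; points are libraries coloured by replicate number (1 green, 2 orange, 3 purple), and bars show the mean ± SD of 3 libraries. At 4 h both fos copies overlap the Ctrl libraries, with fos.S of replicate 2 above them, and jun.L lies below them. Both nr4a1 copies lie above Ctrl at 4 h, and the extract 0 h libraries lie near Ctrl for fos.L.

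The embryo extract offers a comparison at the same time without the Ctrl libraries. It shares the ATP 0 h libraries with the comparison against Ctrl. The genes given here had been chosen for their difference from Ctrl, so these values are not independent support. Of the genes tested in ATP 0 h against extract 0 h, 0 passed an adjusted p under 0.05 (0%), with and without the replicate block. An unadjusted p under 0.05 was reached by 451 genes higher after ATP (1.88%) and 799 lower (3.32%). fos.L had the lowest adjusted p among the immediate early genes named here, 0.289. Its extract libraries were at 3.63, 2.98 and 3.44 CPM, all below the lowest ATP library at 7.27 CPM, and the log2 difference was 1.44 ± 0.228. fos.S was at 4.98, 5.13 and 4.25 CPM after extract, against 8.40 to 15.1 CPM after ATP, a log2 difference of 1.17 ± 0.247. nr4a1.L was at 11.1, 12.1 and 12.2 CPM after extract, below the 17 to 29.1 CPM after ATP, and klf2.S was at 2.83, 2.09 and 3.26 CPM, below 5.01 to 8.05 CPM. nr4a1.S and nr4a2.L did not overlap either, but nr4a2.S did, at 1.11, 1.49 and 1.99 CPM against 1.56 to 2.18 CPM. So did jun.L, at 29.6, 22.4 and 28.7 CPM against 27.9 to 36.2 CPM, and id2.L, at 79.3, 64.4 and 64.0 CPM against 73.0 to 86.9 CPM. Over the immediate early list 19 genes were higher after ATP and 2 lower, with a median of 0.14, while motile cilia genes had 3 higher, 0 lower and a median of 0.06. Differences from extract at 0 h for egr1.L (0.35 ± 0.226), ier2.L (0.39 ± 0.219) and dusp5.L (0.12 ± 0.148) had unadjusted p-values of 0.144, 0.0922 and 0.441, which do not show that the stimuli acted alike on them.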

How the data were processed

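Total RNA was sequenced with a stranded kit after depletion of ribosomal RNA, and the reads were 75 nt long from one end, per the labels. The authors deposited expected counts per gene from RSEM, per the file headers; fastp, STAR and limma are also named, per the submitters' processing notes, without versions. Build and annotation are not given in the sources used here, so no coordinates are printed. RSEM divides reads that fit several genes, and 69.1% of the values were whole. A second deposited table holds log2 CPM of 28009 genes, which its name describes as adjusted for surrogate variables; it was used only as an alternative.

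Counts were rounded and filtered with edgeR's filterByExpr (24052 of 42638 genes kept), scaled by TMM and tested with edgeR 4.0.16 (R 4.3.3), by a robust quasi-likelihood fit over all 15 libraries with 1 coefficient per group. P-values were two-sided and adjusted by Benjamini-Hochberg over all genes. Standard errors are the log2 fold change over the square root of F; fold changes use a prior count of 0.125. Alternatives used DESeq2 1.42.0, limma 3.58.1 and sva 3.50.0. The fits were tested on simulated data.

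Replicate numbers come from the titles. Deviations from group means correlated between same-numbered libraries in each pair (0.201 to 0.461 for ATP 0 h and Ctrl, 0.25 to 0.314 with extract 0 h, 0.246 to 0.403 with ATP 4 h). Same-numbered libraries were therefore treated as pairs in the replicate block and in values given by pair. All other values come from the fit without the block unless stated, so their p-values and SE leave this pairing out. Between replicate libraries 33.4% to 61.7% of genes differed in a chi-square test of counts at the 5% level. That test used library totals without TMM scaling, so these shares include differences in scaling and do not measure replicate spread alone.

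Members and the 17 gene lists, matched by symbol without the homeolog ending, were chosen with earlier results of these data known, and patterns that had caught unrelated genes (hbegf, myh9, myh10 and myh14, krtcap, rps6k, rps19bp, hspg2 and hspbap genes) were corrected after values had been seen. Lists got no test; their counts and medians are set beside those of all genes. Genes were named by rule: the 10 smallest p-values in each direction with at least 1 CPM and no overlap, immediate early genes with an unadjusted p under 0.05 and their homeologs, up to 2 such genes per role of other lists, the 2 most abundant P2X, P2Y and adenosine receptors, and genes called in a fit with 10 or fewer calls. Others (such as atf3, fosl2, hbegf, ccn, tekt3, tubb4b, foxj1.L, tfdp1.L, notch2.L, myh4, cdh5, p2ry2, p2rx7 and the lower homeolog pairs) were chosen after their values had been seen. No sequences are shown. RefSeq symbols of Xenopus_laevis_v10.1 matched 40076 genes and marked 375 as ribosomal RNA. Intervals were not computed for single libraries.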

Additional observations from a re-analysis of the deposited data

How the results depend on the processing

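In ATP 0 h against Ctrl, 0 genes passed an adjusted p under 0.05 in edgeR, as also with limma-voom, RLE factors, only the 2 groups compared, and ribosomal RNA left out. The count was 1 with the replicate block (fos.S), 5 with DESeq2 (nr4a1.L, nr4a1.S, fos.S, fos.L and fam43a.L), 3 with no filter (nr4a1.L, fos.S and fos.L), 1 with homeologs summed (fos), 16 with surrogate variables (6 higher, among them both fos copies), 307 in the authors' adjusted table and 2 with only these groups and the block (thdl20.L and thsd4.L, lower), a setting chosen after seeing the data. Leaving out each library gave 0 to 1, the 1 being nr4a1.L without ATP 0 h replicate 1. In ATP 0 h against extract 0 h the count of 0 became 1 with DESeq2 (fos.L), 13 with only these groups and the block, and 107 in the authors' table, and stayed at 0 with the replicate block and without any library. In ATP 4 h against ATP 0 h the count of 3 became 14 with the replicate block, 48 with DESeq2, 0 with only the 2 groups, 213 with those groups and the block, 47 with surrogate variables and 1071 in the authors' table, and 0 to 1 without a library. In the authors' table the adjustment was made before deposit, so limma's p-values do not count the degrees of freedom it used and are too small by an unknown amount. Where the cause of a change is not stated, the cause was not tested. Of the values for single genes under other settings, 50 passed the threshold only under the alternative, and 12 values of whole-list medians moved by more than their spread. Medians near 0 also changed sign, as for AP-1 and for actin and SRF targets. The ribosomal protein median, 0.22 in the fit without covariates, was just below 0 with surrogate variables. fos.S kept a log2 fold change of 1.35 to 1.84 under 16 alternatives. Levels under about 1 CPM, as for nr4a2.S, rest on few counts, and 3 libraries per group limit every comparison.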
